A study of Mus musculus with 28 samples.

Results

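The genes of the synaptonemal complex and of the meiotic chromosome axis were followed through H3K27ac libraries of mouse male germ cells, 9 in all: Sycp1, Sycp2, Sycp3, Syce1, Syce2, Syce3, Tex12, Hormad1 and Hormad2. All peaks that the deposited tables assign to 1 of these 9 genes were taken, and a promoter peak was any peak reaching within 1 kb of a transcription start listed under that gene alone. The rule gave 133 of 471458 H3K27ac peaks, of which 74 were promoter peaks and 59 lay elsewhere. Where a library had several promoter peaks at a gene, the strongest was used. The genes were 9 of 17923 with such a start.

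The synaptonemal complex is the protein ladder that holds homologous chromosomes together along their length in meiotic prophase, while crossovers are made. Its side rails are the chromosome axes, built on cohesin and coated by SYCP2, SYCP3 and the HORMA-domain proteins HORMAD1 and HORMAD2. SYCP1 forms the transverse filaments between the rails, and SYCE1, SYCE2, SYCE3 and TEX12 form the central element where the filaments meet. The complex is assembled in spermatocytes and taken apart before the meiotic divisions, so that round spermatids no longer hold it. Acetylation of lysine 27 of histone H3 marks active promoters and enhancers.

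The cells came from testes of C57BL/6 mice. The spermatogonia were Thy1+ or c-Kit+ cells of mice at postnatal day 7, each from wild type (WT) mice and from Scml2-KO mice, and the pachytene spermatocytes (PS) and round spermatids (RS) came from adult Scml2-KO mice only. Scml2 encodes a germline polycomb-associated protein. Each of these 6 groups had 2 H3K27ac libraries, made by ChIPmentation, in which a transposase adds the sequencing adapters during immunoprecipitation. H3K27ac of WT PS and WT RS was not analysed here, so every value of the adult stages carries the knockout, and age goes with stage. The cells were isolated by sedimentation (STA-PUT) or magnetic sorting (MACS). The labels do not say how many animals or which separate preparations stand behind the 2 replicates of a group, and p-values here measure only the spread between these libraries. In such bulk samples a smaller share of cells with the mark and less mark per cell cannot be told apart.

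The value used is the deposited fold enrichment, the height of a peak over the background height of its library. The 12 H3K27ac libraries held 17877 to 73316 peaks, and 16 input libraries held 359 to 1192. Read depth is unknown. The background height, which rises with depth, ran from 0.564 in replicate 2 of Thy1+ KO to 1.62 in replicate 1 of PS KO, and the lowest fold enrichment called in a library ran from 3.05 to 3.84. A missing peak therefore means a signal under about that level. No peak of the 9 genes was found in any input, where 0.312% of all genes had a promoter peak in at least 1 library. At Scml2 itself, a promoter peak was called in both PS KO libraries and in replicate 1 of Thy1+ KO and c-Kit+ KO, at 3.81 to 6.08, and in none of the 4 WT libraries; promoter acetylation does not test a deletion elsewhere in the gene.

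The stage labels were set beside marker genes. The 4 measured round spermatid markers (Acrv1, Prm1, Tnp1 and Tnp2) had a promoter peak in all 4 adult libraries and in no spermatogonial library. All 5 pachytene markers had one in both PS and both RS libraries, with a summed fold enrichment of 109 to 134 in PS, 79.0 to 84.9 in RS and 10.4 to 30.9 in spermatogonia. The round spermatid sum was 25.6 to 64.1 in PS and 64.9 to 73.1 in RS. The 4 measured markers of undifferentiated spermatogonia did not follow the labels: their sum was 49.2 to 52.8 in PS, 24.9 to 29.7 in RS and 8.16 to 34.4 in spermatogonia. The 5 markers of differentiating spermatogonia summed to 30.4 to 41.2 in PS, 21.1 to 28.2 in RS and 0 to 16.6 in spermatogonia. Markers of somatic testis cells had peaks too. The 5 Leydig markers summed to 32.0 to 36.3 in PS, 10.6 to 12.4 in RS and 7.84 to 26.0 in spermatogonia. The 5 peritubular markers summed to 17.3 to 31.9 in Thy1+ KO and 0 to 10.4 in the other spermatogonial groups. In PS their sum was 4.80 to 7.24 and in RS 7.03 to 13.3. The 5 endothelium markers summed to 10.9 to 17.2 in Thy1+ KO and 3.72 to 6.62 in the other spermatogonial groups. In PS their sum was 14.5 to 16.5 and in RS 9.74 to 11.7. All 5 Sertoli markers were called in both PS libraries (summed 41.2 to 53.8) against 2 in each RS library (8.66 to 11.7), all 5 macrophage and blood markers in both RS libraries (47.1 to 60.6) against 1 to 3 in PS (4.80 to 15.3), and 0 to 4 Sertoli and 0 to 3 macrophage and blood markers in single spermatogonial libraries. Their part in the results below was not tested.

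The promoters are shown first, because a peak lies across each of them in the adult libraries. In the RefSeq promoter table of GRCm38.p6, which covers 250 bases before to 50 after a start, all 9 genes were matched. CACGTG, the E-box to which MAX dimers bind, was present in the window of 5 of the 9 genes: once in Sycp1, Syce2 and Tex12, and in 2 copies in Sycp3 and Hormad1. Of all 27025 genes listed, 8.09% held it, and over the subset of 8920 of them that could be matched by symbol to a gene with a promoter peak in all 4 adult libraries 12.3% did. GCGGGAA, a site of the E2F type, was present in 4 of the 9 (Sycp3, Syce2, Tex12 and Hormad1), against 5.29% of all genes and 10.0% of those with adult peaks. Each motif was searched on both strands as spelled, and these 2 do not overlap each other in any of the 9 windows. 4 of the E-box promoters and, beside them, the one of Sycp2, which held none of the motifs searched, are printed as the 160 bases before the start, with CACGTG and GCGGGAA in capitals. They lie on GRCm38.p6 at chr3:102936101-102936260 (Sycp1, minus strand), chr10:88459427-88459586 (Sycp3, plus strand), chr3:95559517-95559676 (Hormad1, plus strand), chr9:50561269-50561428 (Tex12, minus strand) and chr2:178407659-178407818 (Sycp2, minus strand).
Sycp1: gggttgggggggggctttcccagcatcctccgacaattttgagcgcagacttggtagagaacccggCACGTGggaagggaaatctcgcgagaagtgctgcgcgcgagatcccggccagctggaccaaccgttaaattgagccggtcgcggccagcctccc
Sycp3: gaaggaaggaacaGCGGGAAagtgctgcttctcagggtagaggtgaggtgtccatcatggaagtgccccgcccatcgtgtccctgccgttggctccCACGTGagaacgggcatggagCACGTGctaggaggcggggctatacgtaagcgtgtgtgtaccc
Hormad1: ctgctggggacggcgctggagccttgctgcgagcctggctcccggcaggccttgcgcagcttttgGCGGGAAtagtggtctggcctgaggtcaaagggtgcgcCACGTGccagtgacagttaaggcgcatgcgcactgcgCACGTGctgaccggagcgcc
Tex12: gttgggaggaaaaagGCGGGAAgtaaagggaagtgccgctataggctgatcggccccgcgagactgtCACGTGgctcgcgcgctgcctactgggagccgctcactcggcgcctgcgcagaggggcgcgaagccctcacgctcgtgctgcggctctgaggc
Sycp2: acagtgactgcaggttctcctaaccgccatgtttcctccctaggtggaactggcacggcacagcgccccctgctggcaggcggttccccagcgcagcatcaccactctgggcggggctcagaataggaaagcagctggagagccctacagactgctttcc

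Counted from the start as base 0, the E-box began at base -94 in Sycp1, -93 in Tex12, -88 in Syce2 (from its second listed start), -64 and -43 in Sycp3, and -57 and -20 in Hormad1. All 7 copies thus lay within the 94 bases before the start. The motif CNCCTCAG, reported for the meiotic entry factor STRA8, was in the windows of Sycp1, Syce2, Tex12 and Hormad2, against 9.12% of all genes; in Syce2 it overlapped the E2F-type site. CAACTG, a form of the core of the site of MYB factors, was in the window of Syce3 alone, against 15.4% of all genes. Other forms of that core were not searched, so the other genes cannot be said to lack a site of this type. The windows had 54.7% to 69.3% G and C, above the median of 52.7% over all windows. A match of letters is a description and no evidence of binding.

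In the adult libraries every one of the 9 promoters carried a peak, and in spermatogonia the same promoters carried a lower peak or none. All 9 had a peak in both PS libraries, where 72.2% of all genes did, and in both RS libraries, where 71.2% did. All 9 also stood higher in each of the 4 adult libraries than in any of the 8 spermatogonial ones, which held for 21.8% of all genes. For 3 of them, Syce3, Tex12 and Hormad1, no spermatogonial library had a peak, as for 5.82% of all genes. In spermatogonia 24 of 72 possible promoter peaks were called, with a median fold enrichment of 5.34, and in the adult stages 36 of 36, with a median of 19.5. None of the 9 had a peak in all 8 spermatogonial libraries, while 49.6% of all genes did. Values below are fold enrichments in replicates 1 and 2 of each group.

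**Figure D1:**
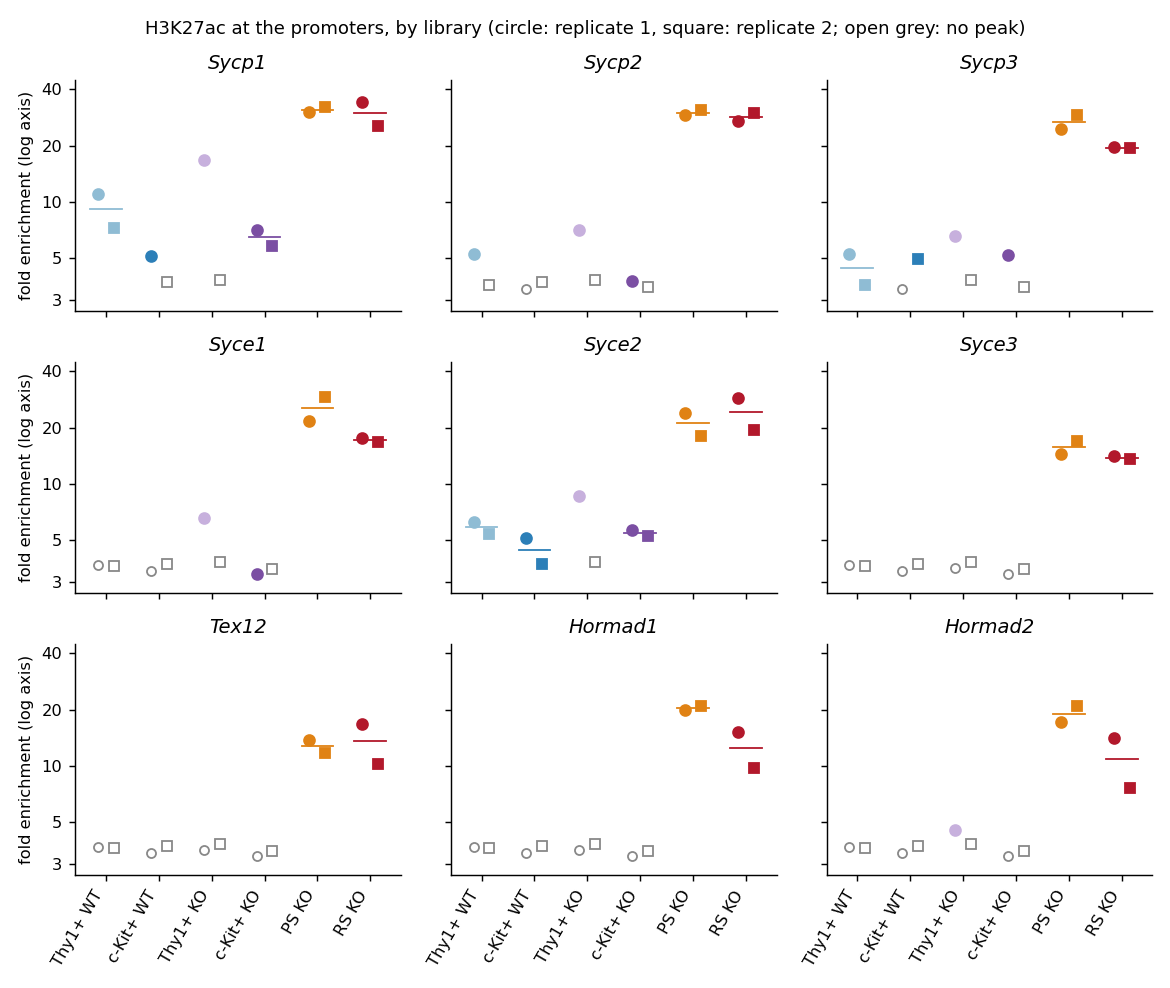
Fold enrichment of the promoter peak (log axis) for each gene and library, in 6 groups of 2 libraries; lines are means of groups with 2 peaks, and open grey symbols stand at the lowest fold enrichment called in a library that has no peak. At all 9 promoters the 4 adult libraries, at 7.57 to 34.0, lie above that gene's spermatogonial values.

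Among the axis genes, Sycp2, whose protein pairs with SYCP3 in the axis core, had 29.0 and 30.9 in PS KO and 26.99 and 29.8 in RS KO. In spermatogonia it was called in replicate 1 of Thy1+ WT (5.24), Thy1+ KO (7.09) and c-Kit+ KO (3.78) and in no other library. The lowest adult value of Sycp2 was thus well above its highest spermatogonial one, and both c-Kit+ WT libraries lacked it.

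Sycp3, the best known axis marker of spermatocytes, had 24.4 and 29.3 in PS KO and 19.6 and 19.5 in RS KO. Its spermatogonial peaks were 5.24 and 3.62 in Thy1+ WT, 4.96 in replicate 2 of c-Kit+ WT, 6.58 in replicate 1 of Thy1+ KO and 5.20 in replicate 1 of c-Kit+ KO. The 3.62 was the lowest value called in that library. The peak of Thy1+ WT replicate 2 ran from base 595 to 739 after the start, and that of c-Kit+ WT replicate 2 from base 647 to 855. With a window of 500 bp, Sycp3 was called in 3 of 8 spermatogonial libraries, against 5 with 1 kb. Both adult stages lay above the spermatogonial values, as for all 9 genes. The PS values lay above the RS values, and how many of all genes show this order was not counted. Without centring on library medians, the median region was also 0.27 log2 units lower in RS.

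Hormad1 and Hormad2 encode the proteins that mark axes which have not yet synapsed and that are removed on synapsis. Hormad1 had 19.8 and 20.8 in PS KO, 15.3 and 9.74 in RS KO and no peak in spermatogonia. Hormad2 had 17.2 and 20.8 in PS KO, 14.1 and 7.57 in RS KO and a single spermatogonial peak of 4.56 in replicate 1 of Thy1+ KO. For both, replicate 2 of RS KO was the lowest of the 4 adult libraries, as it was for Sycp1, Sycp3, Syce1, Syce3 and Tex12. Over all called promoters its median fold enrichment was 12.4, against 14.5 to 17.6 in the other adult libraries. The PS values of both lay above the RS values, as they did for Sycp3, Syce1 and Syce3. These values are not centred, and the median region without centring was 0.27 log2 units lower in RS.

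Sycp1, the transverse filament gene, had 30.1 and 32.0 in PS KO and 34.0 and 25.4 in RS KO. In spermatogonia it had 11.0 and 7.24 in Thy1+ WT, 5.13 in replicate 1 of c-Kit+ WT, 16.7 in replicate 1 of Thy1+ KO, and 7.09 and 5.83 in c-Kit+ KO. Replicate 2 of c-Kit+ WT and of Thy1+ KO had no Sycp1 peak. In replicate 2 of RS KO Sycp2 was higher than Sycp1, and in the other 3 adult libraries Sycp1 was the higher of this pair.

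Of the central element genes, Syce2, whose protein builds fibres along the midline with TEX12, was the most often called: 24.0 and 18.1 in PS KO, 28.9 and 19.5 in RS KO, 6.29 and 5.43 in Thy1+ WT, 5.13 and 3.72 in c-Kit+ WT, 8.61 in replicate 1 of Thy1+ KO, and 5.67 and 5.25 in c-Kit+ KO. Only replicate 2 of Thy1+ KO lacked it. The 3.72 in replicate 2 of c-Kit+ WT was the lowest value called in that library. Syce1, a central element protein that binds SIX6OS1, had 21.7 and 29.3 in PS KO and 17.6 and 16.8 in RS KO, with spermatogonial peaks of 6.58 in replicate 1 of Thy1+ KO and 3.31 in replicate 1 of c-Kit+ KO, the latter being the lowest value called in that library. Syce1 had no peak in any WT library.

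Syce3, which helps to recruit the other central element proteins, had 14.5 and 17.1 in PS KO and 14.1 and 13.5 in RS KO. One of its starts is also listed with Chkb, Cpt1b and BC090627, so the Syce3 peak cannot be assigned to it alone. Tex12 had 13.7 and 11.7 in PS KO and 16.8 and 10.3 in RS KO. Neither gene had a spermatogonial peak, and PS and RS values of Tex12 overlapped. No start of another gene lay within 1 kb of a start of the other 8 genes.

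Each promoter peak was also placed among all called promoters of the same library. Sycp1 stood at the 88.9 to 98.2 percentile of fold enrichment in the adult libraries and Sycp2 at the 86.9 to 97.1. Sycp3 stood at 69.3 to 83.6, Syce1 at 61.2 to 83.6 and Syce2 at 50.6 to 93.9. Syce3 (42.4 to 53.1), Hormad1 (34.5 to 61.5), Tex12 (30.7 to 58.1) and Hormad2 (23.3 to 59.0) lay around the middle, and their ranges overlapped one another. In spermatogonia, the 24 called peaks had a median percentile of 12.2, and none exceeded the 56.0 of Sycp1 in replicate 1 of Thy1+ KO. The adult peaks had a median of 64.6. Presence of an E-box did not divide the genes by this order, since Sycp2 and Syce1 lacked it and Tex12 and Hormad1 held it.

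**Figure D2:**
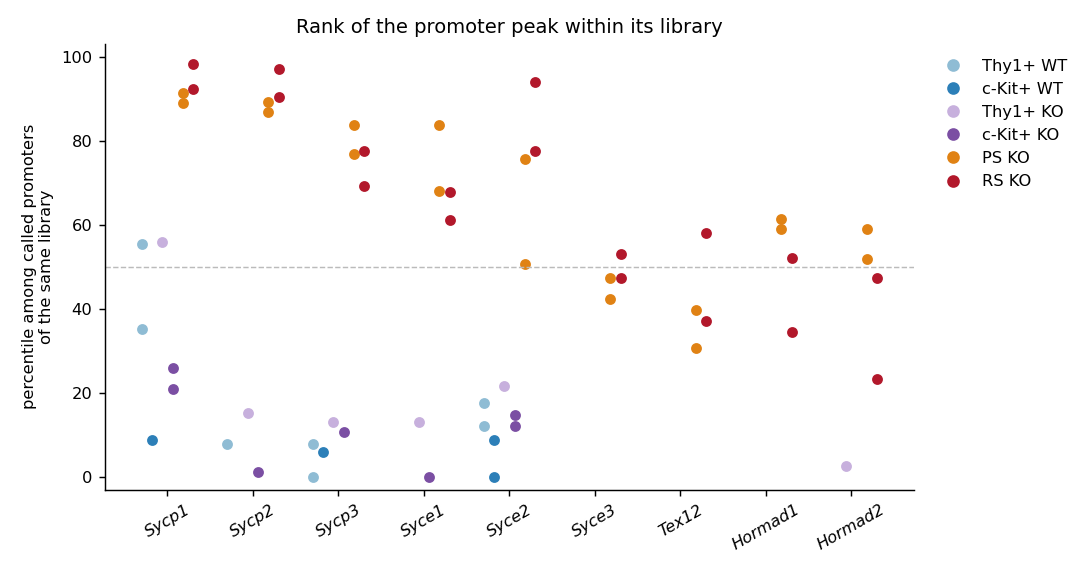
Percentile of the promoter peak's fold enrichment among all called promoters of its own library, for each gene; a point is a library with a peak, coloured by group, and the dashed line is the 50th percentile. Sycp1 and Sycp2 lie at or above 86.9 in the 4 adult libraries, whereas the 24 spermatogonial peaks reach at most 56.0.

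The peaks also differed in extent. Adult promoter peaks of the 9 genes were 1177 to 3056 bp long with a median of 1713 bp, and the spermatogonial ones 145 to 1173 bp with a median of 413 bp. Median lengths over all called promoters were 1536 to 1854 bp in the adult libraries and 755 to 1345 bp in the spermatogonial ones, so the peaks of these genes were about as long as usual in adult cells and shorter than usual in spermatogonia. All 36 adult peaks spanned a listed start, as 81.4% to 87.4% of all called promoters did. Of the 24 spermatogonial peaks 12 spanned a start, 11 lay wholly downstream and 1 wholly upstream, while 64.3% to 85.2% of all called promoters spanned one and 10.1% to 25.5% lay downstream. Only the strongest peak of a gene in a library was placed. In Thy1+ WT, for example, the strongest Sycp1 peaks ran from base 19 to 583 and from base 54 to 601 after the start. In PS KO they ran from base -1207 to 1105 and from base -1430 to 795. Replicate 1 of Thy1+ WT also had a weaker Sycp1 peak (5.24) before the start, at chr3:102936225-102936441. A weaker Syce2 peak lay after the start in replicate 2 of Thy1+ WT (4.22) and before it in replicate 1 of c-Kit+ KO (4.26). The Sycp2 peak of Thy1+ WT replicate 1 ran from base 246 to 656.

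**Figure D3:**
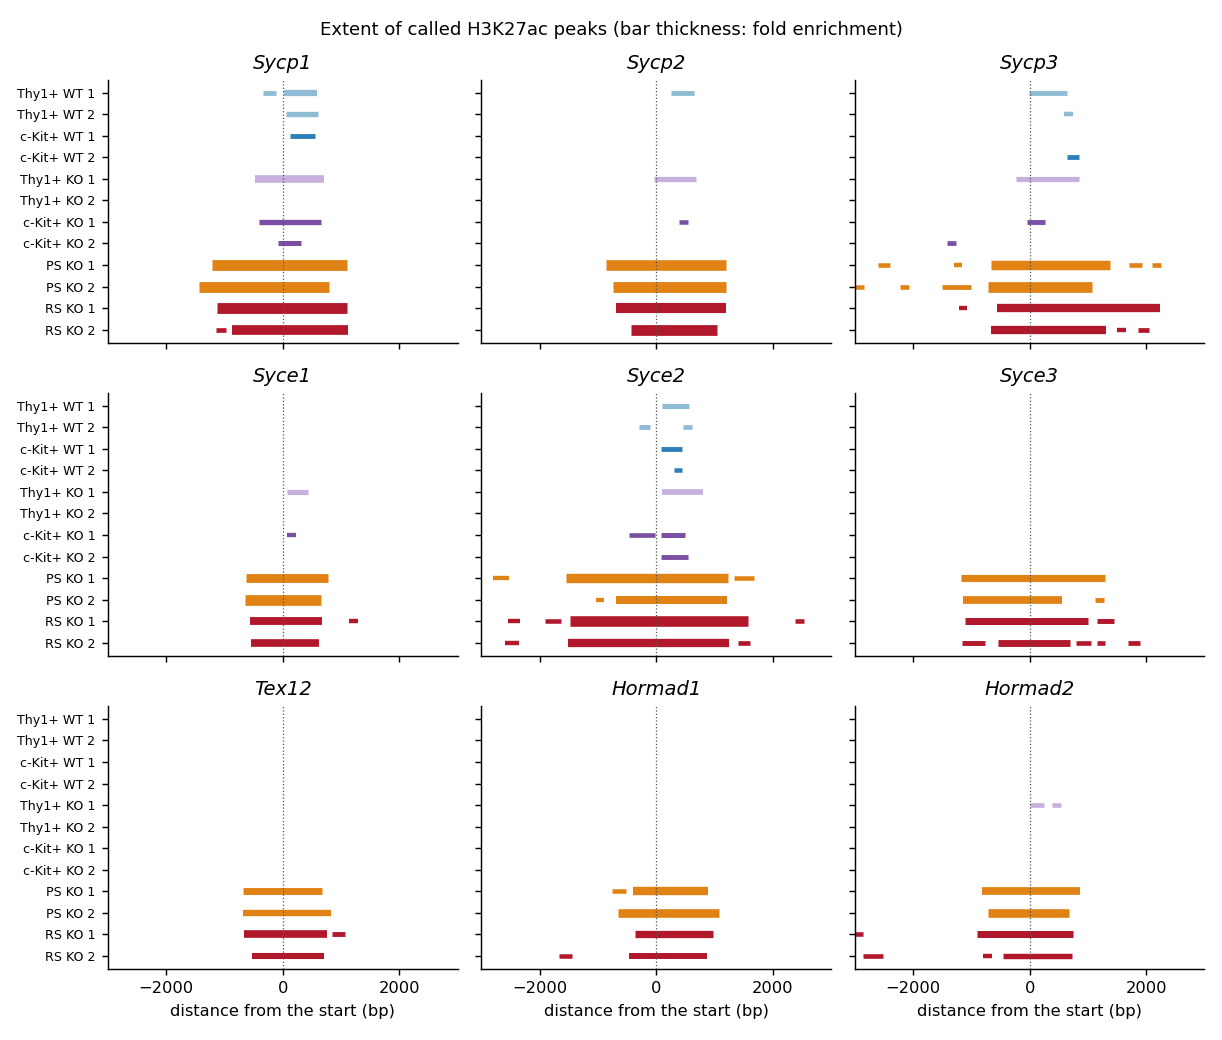
Extent of called peaks within 3000 bp of the first listed start of each gene, in bp along the direction of transcription; a row is a library, colour is the group and bar thickness grows with fold enrichment up to a ceiling. The 36 adult promoter peaks cross a start, and many short spermatogonial peaks of Sycp1, Sycp2, Sycp3, Syce1 and Syce2 lie after it.

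Whether the rise between stages exceeded the spread between libraries could be tested only where a peak was called in every library compared. For PS against c-Kit+ spermatogonia, both KO, this left Sycp1 and Syce2 of the 9, and both rose. Sycp1 went from 6.46 ± 0.893 (SD, n = 2) to 31.1 ± 1.32 (SD, n = 2), a log2 change of 1.19 relative to the median region (standard error 0.188, limma, Benjamini-Hochberg adjusted p = 0.000628 over 12501 regions). Syce2 went from 5.46 ± 0.302 (SD, n = 2) to 21.1 ± 4.17 (SD, n = 2), a log2 change of 0.86 (standard error 0.214, limma adjusted p = 0.00843). Of all regions 6.83% rose and 25.1% fell. Values were centred on each library's median, and without centring the median region was itself 0.91 log2 units higher in PS, 8841 regions rose and 99 fell, against 854 and 3138 with it; Sycp1 then rose by 2.27 and Syce2 by 1.94. Without replicate 2 of c-Kit+ KO no region passed limma's threshold (5751 of 16882 at an unadjusted p under 0.05), and adjusted p was 0.0714 for Sycp1 and 0.0899 for Syce2; without replicate 1 of PS KO it was 0.0874 for Syce2. Over the 10 alternatives limma's adjusted p ran from 3.51e-13 to 0.0714 for Sycp1 and from 5.74e-10 to 0.0899 for Syce2.

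For the other 7 genes a c-Kit+ KO library lacked a peak. With such libraries set to their lowest called value, the log2 differences of PS over c-Kit+, relative to the median region, were 1.96 for Sycp2, 1.81 for Syce1, 1.57 for Sycp3, 1.50 for Hormad1, 1.40 for Hormad2, 1.13 for Syce3 and 0.82 for Tex12. Sycp2, Sycp3 and Syce1 had a peak in 1 of the c-Kit+ KO libraries and the other 4 in neither. Since these genes were admitted to that fit by their PS peaks, the values are given without a test. Of 40536 regions in it, 2385 (5.88%) passed as higher and 16581 as lower. Over 4 adult and 4 spermatogonial KO libraries none of the 9 could be tested, since replicate 2 of Thy1+ KO had a peak at none of them. With that library left out, Sycp1 and Syce2 had peaks in all 7 others. Sycp1 then rose by 1.14 (standard error 0.176, limma adjusted p = 0.00197) and Syce2 by 1.18 (standard error 0.212, limma adjusted p = 0.00385), where 8.45% of 10870 regions rose and 17.3% fell. With all 8 libraries and the missing peak set to the lowest called value, limma's adjusted p for these genes was 0.0100 and 0.0101, and of 59684 regions 1578 (2.64%) rose and 6218 fell.

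Between WT and KO spermatogonia the numbers of peaks at these promoters were close, with 11 of 36 possible in WT and 13 of 36 in KO, and the spread within a group was large. In KO, replicate 1 of Thy1+ had a peak at 6 of the 9 (68.0% of all genes) and replicate 2 at none (58.7% of all genes). The other counts were 4 and 3 in Thy1+ WT, 2 and 2 in c-Kit+ WT, and 5 and 2 in c-Kit+ KO. Single spermatogonial libraries had a promoter peak at 55.5% to 68.0% of all genes. Both libraries of a group had a peak at 3 promoters in Thy1+ WT (54.7% of all genes), 1 in c-Kit+ WT (54.8%), 0 in Thy1+ KO (58.4%) and 2 in c-Kit+ KO (55.7%). Replicate 1 had the higher background height in each of these 4 groups, and depth was not tested as a part of these differences. None of the 9 could be tested for genotype or for c-Kit+ against Thy1+ over all 8 libraries. Syce2 could be tested without replicate 2 of Thy1+ KO: KO minus WT was 0.11 (95% interval -0.24 to 0.46, limma adjusted p = 0.961), and c-Kit+ minus Thy1+ was -0.029 (95% interval -0.38 to 0.32, limma adjusted p = 0.965). With all 8 libraries and missing peaks at the lowest called value, the genotype difference of Syce2 was -0.035 (limma adjusted p = 0.981) and the stage difference 0.12 (limma adjusted p = 0.808). In that fit 4 more genes could be entered. Of the 8 libraries, Sycp1 had a promoter peak in 6, Sycp3 in 5, Sycp2 in 3 and Syce1 in 2. The remaining values were the set ones, shifted by each library's median. The estimates and p-values of these 4 genes therefore cannot decide whether their promoters differ. The genotype differences were -0.073 for Sycp1, -0.13 for Sycp2 and -0.15 for Sycp3 (limma adjusted p from 0.923 to 0.970). Syce1 had no WT peak and was admitted to that fit by its KO peaks alone. Its genotype difference of -0.076 is therefore given without a test. The stage difference was -0.40 for Sycp1 (limma adjusted p = 0.467). It was -0.13 for Sycp2, 0.11 for Sycp3 and -0.025 for Syce1 (limma adjusted p from 0.765 to 0.961 for these 3).

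From PS to RS, when the complex has been dismantled, the acetylation of these promoters was still present. All 9 could be tested, and none passed limma's adjusted p threshold of 0.05, where 20.2% of 21329 regions did (12.4% higher and 7.79% lower in RS). The median log2 change of the 9 was 0.0053 and that of all regions -0.079. At an unadjusted p under 0.05, 7283 regions and, of the 9 genes, Hormad1 and Hormad2 were below the threshold. Hormad2 was 19.0 ± 2.57 in PS and 10.8 ± 4.60 in RS (SD, n = 2 each), a log2 change of -0.68 (95% interval -1.22 to -0.14, limma adjusted p = 0.0761). Hormad1 was 20.3 ± 0.682 and 12.5 ± 3.90 (SD, n = 2 each), a log2 change of -0.54 (95% interval -1.01 to -0.080, limma adjusted p = 0.0946). Sycp3 (-0.26, 95% interval -0.72 to 0.20) and Syce1 (-0.36, -0.84 to 0.11) were lower in RS within their error.

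The remaining estimates lay at or above 0: Sycp1 0.12 (95% interval -0.31 to 0.54), Sycp2 0.11 (-0.36 to 0.59), Syce2 0.38 (-0.13 to 0.89), Syce3 0.0053 (-0.44 to 0.45) and Tex12 0.24 (-0.26 to 0.75). Intervals of this width leave room for changes in either direction. Centring matters here: without it 2220 regions rose and 3630 fell, against 2648 and 1661 with it, the median region was 0.27 log2 units lower in RS, and Hormad1 (-0.74, limma adjusted p = 0.0328) and Hormad2 (-0.87, limma adjusted p = 0.0189) fell. Without replicate 1 of RS KO, Hormad2 fell by 0.99 (limma adjusted p = 0.0354). Over all alternatives limma's adjusted p ran from 0.0328 to 0.444 for Hormad1 and from 0.0189 to 0.436 for Hormad2. Macrophage and blood markers were higher in RS and Sertoli markers higher in PS, as given above, and their part was not tested.

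**Figure D4:**
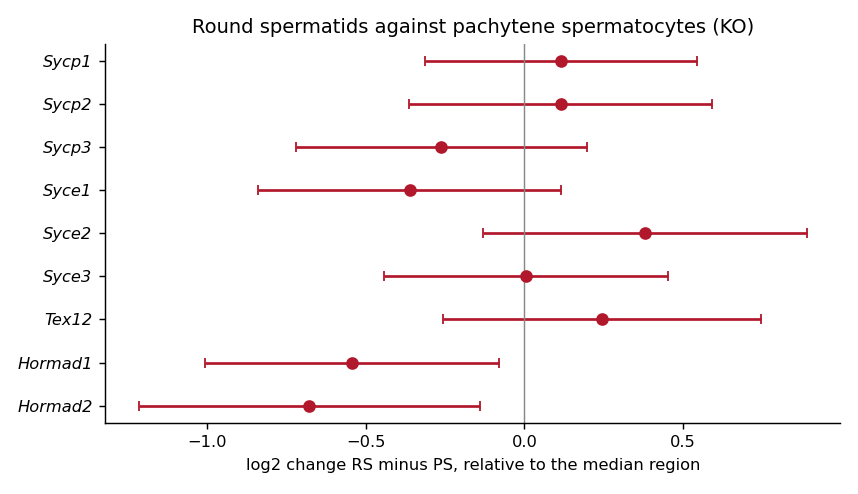
Log2 change of the promoter peak from PS to RS in KO, relative to the median region, for each gene; points are limma estimates from 2 against 2 libraries and bars are 95% intervals. Hormad1 (-0.54) and Hormad2 (-0.68) are the lowest, and the other 7 intervals include 0.

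The 59 peaks outside the promoters were small, 27 intergenic (fold enrichment up to 9.78), 16 intronic (up to 8.21) and 16 upstream (up to 4.80). All 27 intergenic peaks were assigned to Hormad2 and lay beyond its 3′ end. The strongest lay at chr11:4273403-4275481, in replicate 1 of RS KO, with its summit 166868 bp from the Hormad2 start. Over that region the values were 4.19 in replicate 1 of PS KO and 9.78 and 7.03 in RS KO. The gene name in the tables does not tie these distant peaks to Hormad2. Among those regions, chr11:4302318-4302991 was called in c-Kit+ WT replicate 2 (4.34), both c-Kit+ KO libraries (4.73 and 4.08) and replicate 2 of PS KO (4.80). At Sycp1, an intronic peak at chr3:102865347-102866674 had 4.58 in replicate 1 of PS KO and 8.21 and 6.49 in RS KO, and no spermatogonial library had it.

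Of 18 further genes that work with the complex, 15 were matched, and 11 had a peak in both PS and both RS libraries. Over all genes 67.1% did. For 3 of the 15 no promoter peak was called in any H3K27ac library. These were Rad21l, a meiotic cohesin subunit, and Ccdc36 and Rec114 (listed as 2410076I21Rik), which act in making meiotic DNA breaks. Single adult libraries had a promoter peak at 72.2% to 76.2% of all genes. The share of all genes without a peak in any library was not counted. For PS against c-Kit+ KO, 5 of the 15 could be tested and 2 rose, where 6.83% of all regions rose and 25.1% fell. Spdya, an activator of CDK2 at meiotic telomeres, went from 4.17 ± 0.124 to 27.1 ± 5.42 (SD, n = 2 each; log2 change 1.61, limma adjusted p = 0.000303), and the meiotic cohesin Smc1b from 7.06 ± 3.39 to 25.7 ± 6.22 (SD, n = 2 each; 0.86, limma adjusted p = 0.0205).

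From PS to RS, 11 of the 15 could be tested, and 1 rose, a share near the 12.4% of all regions that rose. The meiotic cohesin subunit Rec8 went from 8.08 ± 3.13 to 12.9 ± 2.20 (SD, n = 2 each; log2 change 0.92, limma adjusted p = 0.0448). With missing peaks of other regions at the lowest called value, its limma adjusted p was 0.0756. Rec8 was 1 of 2 partners with a peak in all 4 adult libraries and in no spermatogonial one. The same held for Syce3, Tex12 and Hormad1, and for 5.82% of all genes. Over all KO libraries 3 partners could be tested and Spdya rose (log2 change 1.46, limma adjusted p = 4.78e-05), where 9.85% of 10287 regions rose and 22.4% fell. No partner passed for genotype or for c-Kit+ against Thy1+, with 2 tested (Sun1 and Trip13); of all 9585 regions, 0% passed limma's threshold for genotype (502 at an unadjusted p under 0.05) and 1.09% for stage. Genes with the most similar profile over the 12 libraries were not sought, since none of the 9 genes had a peak in all 12.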

How the data were processed

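Each library had its own peak table, so replicates were not pooled before calling. The submitters' processing notes name Bowtie, MACS2 and mm10; versions and filters are not given in the sources used here. Per the file headers, the deposited tables give a peak's length, a pileup signal height, a fold enrichment ratio and −log10 p and −log10 q values. Fold enrichment equalled (height + 1) over (background + 1) with 1 background per library, so no input or local control entered it, and counts and depth are unknown.

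For each comparison, peaks sharing at least 1 bp were merged into regions. The strongest fold enrichment of a library there was its value. Regions called in all libraries of the comparison were tested as log2 values, centred on library medians (limma 3.58.1, R 4.3.3; Benjamini-Hochberg adjusted p under 0.05). Other steps used Python 3.11.15, numpy 2.4.6 and pandas 2.3.3. The fits were tested on simulated data. Coordinates are those of the deposited tables. Alternatives were a replicate block, quantile normalization, no centring, missing peaks at the lowest called value, a −log10 q of at least 10, 50% overlap, removal of input regions, other promoter windows, equal peak numbers and leaving out each library. The 9 genes and all lists were chosen with earlier results of these data known. The 9 genes are always named; partner genes are named where they pass in a comparison (at most 4 per direction) or, for 3 without any peak and 2 tested without passing, were named after their values were seen.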

Additional observations from a re-analysis of the deposited data

How the results depend on the processing

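All 9 promoters had a peak in both PS and both RS libraries under the promoter settings tried, except that a −log10 q of at least 10 left 8 in RS, without Hormad2. In spermatogonia, a −log10 q of at least 10 left 0 genes called in both libraries of Thy1+ WT, c-Kit+ WT and c-Kit+ KO, and equal numbers of strongest peaks left 0 in c-Kit+ WT. Leaving out each library gave 3 to 4 genes in Thy1+ WT, 2 to 2 in c-Kit+ WT, 0 to 6 in Thy1+ KO and 2 to 5 in c-Kit+ KO. Of the genes tested for PS against c-Kit+, 0 to 2 passed when a library was left out, and none could be tested under the stricter threshold (0). With missing peaks at the lowest called value the count was 9, but 7 of these genes lacked a peak in 1 or both c-Kit+ KO libraries. They were admitted by their PS peaks, so the count of 9 supports nothing. For RS against PS, 2 passed without centring and 0 to 1 when a library was left out. For adult against spermatogonial KO, 0 to 2 passed when a library was left out; the count of 9 with missing peaks at the lowest value includes genes admitted by their adult peaks and supports nothing either.

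The RS minus PS estimates near 0 changed sign: without centring Sycp1 was -0.0777, Sycp2 -0.0792 and Syce3 -0.188, and when a library was left out Sycp2 ran from -0.132 to 0.323, Syce3 from -0.141 to 0.114 and Tex12 from -0.0068 to 0.424. None of these passed the threshold, and the cause was not tested. The other single-gene values kept direction and side of the threshold in 104 cases, with 3 gained and 3 lost calls, given above.

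Over all regions, the stage comparison in spermatogonia called 104 regions, 206 with the replicate block, 0 without centring, 314 with missing peaks at the lowest value, 1 under the stricter threshold, 160 without input regions, and 9 to 178 when a library was left out. PS against c-Kit+ called 3992, then 784 with quantile normalization, 8940 without centring, 18966 with missing peaks at the lowest value, 720 under the stricter threshold, and 0 to 4564 when a library was left out (0 without c-Kit+ KO replicate 2). RS against PS called 4309, then 10816 with missing peaks at the lowest value, 651 under the stricter threshold and 0 to 3402 when a library was left out (0 without PS KO replicate 2, 6923 at an unadjusted p under 0.05 in limma). Adult against spermatogonial KO called 3322, then 7796 with missing peaks at the lowest value and 1065 under the stricter threshold; without centring 3783 rose and 61 fell, against 1013 and 2309. Genotype called 0 under every setting run. The same replicate numbers share no stated source. Differences between replicate 1 and replicate 2 of a group, after centring, correlated between groups at -0.008 to 0.16 over regions. The block is therefore only an alternative, and it changed no call at the 9 genes. Where leaving out a library left 1 in a group, that library was assumed to vary like the others. Depth, which is unknown, limits what a missing peak means.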
